A study of Mus musculus with 15 samples.

Results

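The let-7 family guides are 9 mature microRNAs (miRNAs) of mouse that begin with nearly the same bases: mmu-let-7a-5p, mmu-let-7b-5p, mmu-let-7c-5p, mmu-let-7d-5p, mmu-let-7e-5p, mmu-let-7f-5p, mmu-let-7g-5p, mmu-let-7i-5p and mmu-miR-98-5p. They were taken by name from a deposited table of 1915 mature miRNAs. All 9 passed the filter on low counts, which left 351 miRNAs for testing. In these libraries the family took 11.7% ± 1.78 (SD, n = 15) of all miRNA counts, mostly as let-7i, let-7f and let-7g, and no member passed the test between any pair of groups compared.

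Small RNA was sequenced from acini of the mouse pancreas, small groups of exocrine cells that release digestive enzymes into the ducts, taken from C57BL/6 mice of 7 to 8 weeks. There were 15 libraries in 5 groups of 3. Control acini received no drug. Other acini received caerulein, a peptide agonist of the cholecystokinin receptor, at 100 nM, a dose the labels call pathological, or at 100 pM, a dose they call physiological. The last 2 groups received taurolithocholic acid 3-sulfate (TLC-S), a bile acid, at 250 uM or 62.5 uM. The labels give no genetic change and no length of treatment. They describe each RNA input as a pool from 3 acinar preparations, and do not say whether the libraries of a group came from different preparations. The p-values below therefore reflect nothing but library-to-library spread, part of which may be technical.

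A miRNA is cut in steps from a hairpin transcript, and 1 arm of the hairpin, the guide, is loaded into an Argonaute protein while the other, the passenger, is mostly lost. The guide finds messenger RNAs mainly through its seed, so guides with the same seed share many targets. The let-7 family is known for its rise during differentiation and for its repression of growth genes such as Hmga2, Lin28 and Ras genes, and the Lin28 proteins in turn block the processing of let-7 hairpins.

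The 9 guides are printed from RefSeq (GRCm38.p6), 5′ to 3′, to show what they share and how little separates them; capitals mark the seed, bases 2 to 8.
mmu-let-7a-5p: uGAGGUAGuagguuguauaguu
mmu-let-7b-5p: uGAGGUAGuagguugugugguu
mmu-let-7c-5p: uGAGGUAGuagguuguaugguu
mmu-let-7d-5p: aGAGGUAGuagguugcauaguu
mmu-let-7e-5p: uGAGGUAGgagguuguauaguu
mmu-let-7f-5p: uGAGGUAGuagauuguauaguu
mmu-let-7g-5p: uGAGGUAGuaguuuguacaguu
mmu-let-7i-5p: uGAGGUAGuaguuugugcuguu
mmu-miR-98-5p: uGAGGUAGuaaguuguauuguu
All 9 are 22 bases long, have the seed GAGGUAG, and are equal at 14 of 22 positions. Counted from 1 at the 5′ end of let-7a, let-7c differs from it by A19G, let-7e by U9G and let-7f by G12A. The change in let-7b is A17G and A19G, in let-7d U1A and U16C, in let-7g G12U and U18C, and in miR-98 G11A and A19U. The member farthest from let-7a is let-7i, with G12U, A17G, U18C and A19U. Of the 36 pairs of guides, 4 differ at 1 base and 10 at 2 bases. A read with 1 error can then fit a relative equally well, and the levels of members so close are uncertain to an extent that was not tested.

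The guides come from 12 hairpins, placed here on GRCm38 with GENCODE M21 as 1-based coordinates. On chromosome 13, Mirlet7d (48536012 to 48536114), Mirlet7f-1 (48537829 to 48537917) and Mirlet7a-1 (48538179 to 48538272) lie on the minus strand in exons of the long noncoding RNA 6720427I07Rik, with 1714 and 261 bases between neighbours. On chromosome 15, Mirlet7c-2 (85706603 to 85706697) and Mirlet7b (85707319 to 85707403) lie 621 bases apart on the plus strand in an exon of the noncoding transcript Lncppara. On chromosome X, Mirlet7f-2 (151912346 to 151912428) and Mir98 (151913214 to 151913321) lie 785 bases apart in an intron of Huwe1, which encodes a ubiquitin ligase. Mirlet7i on chromosome 10 (122985640 to 122985724, minus strand) falls in an exon of D630033A02Rik, annotated as a transcribed processed pseudogene. Mirlet7g on chromosome 9 (106178840 to 106178927, plus strand) falls in an intron of Wdr82. Mirlet7c-1 on chromosome 16 (77599657 to 77599750) lies in an intron of Mir99ahg, Mirlet7e on chromosome 17 (17830352 to 17830444) in an intron of Spaca6, and Mirlet7a-2 on chromosome 9 (41536716 to 41536811) in introns of 3110039I08Rik and Gm49317, all on the plus strand.

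The libraries held 535473 to 5087728 miRNA counts. A member had between 190 and 178855 counts in a library, so counting error alone was at most 7.25% of a value. Reads were not tagged by molecule, and intervals from counts cover counting error only. Levels are given as TMM-scaled CPM, counts scaled to a common library size after a correction (TMM) that takes the bulk of miRNAs as unchanged. Acinar marker miRNAs (miR-217-5p, miR-216a-5p, miR-216b-5p and miR-148a-3p) held 38.6% ± 8.74 of the counts (SD, n = 15), and the islet markers miR-375-3p and miR-7a-5p held 11.5% ± 2.49. Endothelial and mesenchymal markers held 0.594% and 1.25%, erythrocyte markers held 0.00926%, and 3 of 4 leukocyte markers passed the filter at 0.00590% in all. Which cells the counts of each marker list came from was not tested, so these shares are not shares of cells. In control replicate 3, miR-148a-3p alone took 50.5% of the counts. In such bulk samples, fewer cells of a type and less RNA per cell cannot be told apart.

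The levels of the 9 guides spanned a 123-fold range. In CPM, let-7i averaged 36138 ± 5125 (SD, n = 15), let-7f 33469 ± 7420 and let-7g 28635 ± 5633. They were the 6th, 8th and 9th most abundant of the 351 miRNAs. The other members were let-7c at 5959 ± 1213, let-7b at 5449 ± 707, miR-98 at 3313 ± 609, let-7a at 2731 ± 693, let-7d at 1008 ± 243 and let-7e at 293 ± 65.4 CPM. The mean RPM of the deposited precursor table put them in the same order.

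**Figure D1:**
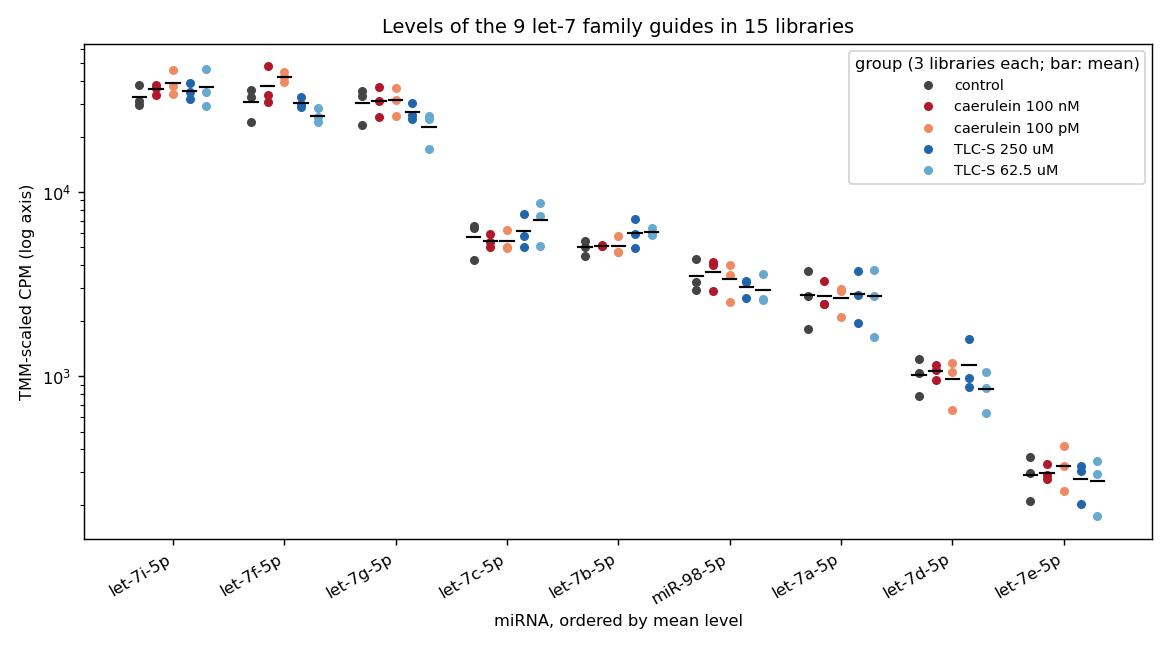
Level of each let-7 family guide in TMM-scaled CPM on a log axis, with 1 point per library, coloured by group, and a bar at the mean of each group of 3. The guides let-7i, let-7f and let-7g sit between 17159 and 48080 CPM in every library, and the other 6 reach at most 8730 CPM.

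Some neighbours in this order were clearly apart and others were not. The step from let-7g to let-7c was 4.80-fold (log2 ratio 2.26 ± 0.35, SD, n = 15) and was seen in 15 of 15 libraries. Steps in 15 of 15 libraries also separated let-7b from miR-98 (0.73 ± 0.32), let-7a from let-7d (1.43 ± 0.21) and let-7d from let-7e (1.78 ± 0.27). In contrast, let-7i exceeded let-7f in 10 of 15 libraries (0.13 ± 0.31), let-7f exceeded let-7g in 12 (0.22 ± 0.26), let-7c exceeded let-7b in 11 (0.11 ± 0.19) and miR-98 exceeded let-7a in 10 (0.30 ± 0.44). Those 4 pairs differed by less than their spread over libraries. The annotated guides have the same length. Whether the library preparation favours some of these sequences was not tested.

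Since the guides share a seed, their sum describes the supply of that seed. The 3 leading guides made up 83.8% ± 2.64 (SD, n = 15) of the family's counts, from 78.4% in TLC-S 62.5 uM replicate 1 to 87.8% in caerulein 100 pM replicate 2. The family's share of all counts was 11.3% ± 2.71 in control, 13.0% ± 2.04 at caerulein 100 nM, 11.2% ± 1.98 at caerulein 100 pM, 11.7% ± 1.71 at TLC-S 250 uM and 11.5% ± 0.848 at TLC-S 62.5 uM (SD, n = 3 each). The lowest share, 8.74%, was in control replicate 3 and the highest, 15.2%, in caerulein 100 nM replicate 2. The 95% Wilson interval of a single library's share reached at most 0.0961 percentage points to either side. The group ranges of this share overlapped each other. On the TMM scale the summed level of the 9 guides was 92796 to 126555 CPM in control, 107062 to 142343 at caerulein 100 nM and 124294 to 134648 at caerulein 100 pM. It was 108273 to 118951 CPM at TLC-S 250 uM and 103219 to 108695 at TLC-S 62.5 uM. On that scale each treatment overlapped with control. Caerulein 100 pM lay above both TLC-S groups, which was outside the comparisons made and was not tested. How many of all miRNAs separate in the same way was not counted. The TMM factors of caerulein 100 pM replicates 2 and 3 were 0.768 and 0.794, and a low factor raises the scaled level. As shares of all counts, these groups overlapped. With miR-148a-3p left out of the total, the share was 16.3% ± 1.47 over the 15 libraries, and control replicate 3 stood at 17.7%, with 3 libraries above it.

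The comparisons with control asked whether either agent, at either dose, changed a let-7 guide. At the adjusted threshold of 0.05 (edgeR's quasi-likelihood test with Benjamini-Hochberg adjustment over 351 miRNAs), 0 of 9 members passed in each of the 4 treatments. Over all miRNAs, 0% were called at that threshold with caerulein 100 nM, caerulein 100 pM or TLC-S 250 uM, and 0.57% with TLC-S 62.5 uM. The median log2 difference of the 9 guides was 0.04 with caerulein 100 nM, 0.02 with caerulein 100 pM, 0.03 with TLC-S 250 uM and -0.10 with TLC-S 62.5 uM. The same medians over all 351 miRNAs were 0.03, 0.01, -0.03 and -0.01. Of the 9 guides, 7 had a positive difference at caerulein 100 nM, 5 at caerulein 100 pM, 5 at TLC-S 250 uM and 3 at TLC-S 62.5 uM, while 52.7%, 51.3%, 45.0% and 48.7% of all miRNAs did.

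**Figure D2:**
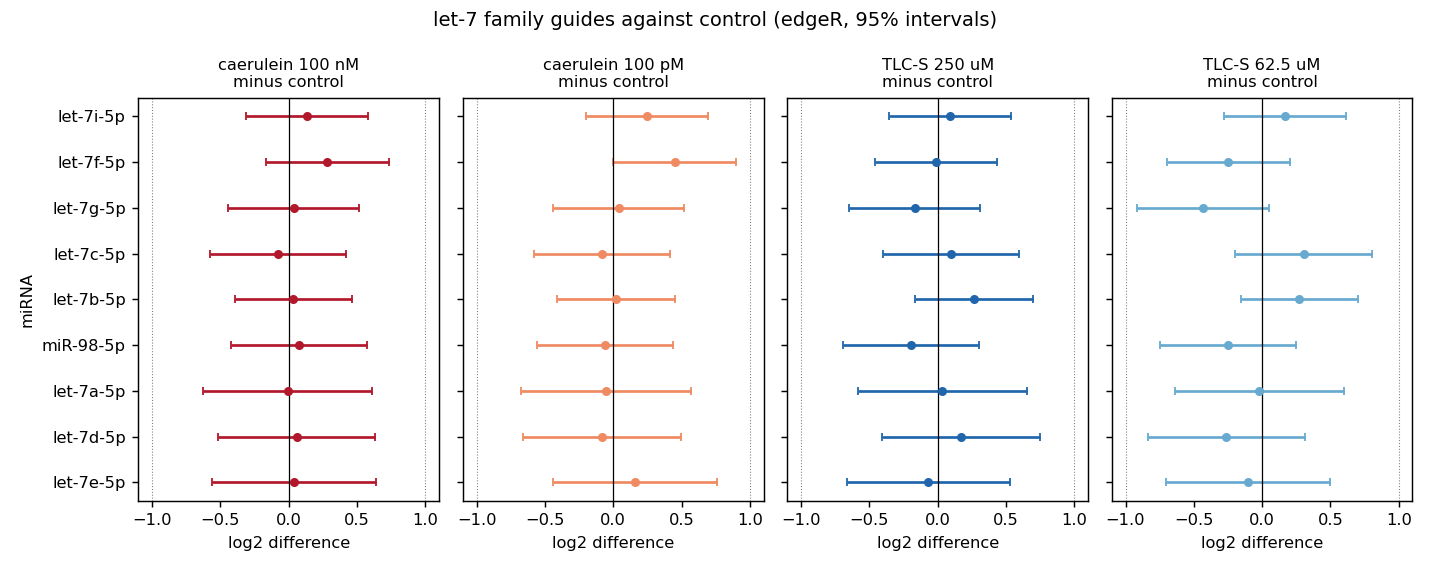
Log2 difference of each let-7 family guide from control in the 4 treatments, with 3 libraries per group. The 95% intervals were derived from edgeR's test statistic. Dotted lines mark a log2 difference of 1 in either direction. All intervals stay inside the dotted lines, and the interval of let-7f at caerulein 100 pM begins at 0.001.

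The guides did not pass between doses or between agents either. None of 9 was called for caerulein 100 nM against 100 pM (0% of all miRNAs called), for TLC-S 250 uM against 62.5 uM (1.14% of all) or for caerulein 100 nM against TLC-S 250 uM (0% of all). The median differences of the 9 were 0.00, 0.05 and 0.04 on the log2 scale, beside -0.02, 0.01 and 0.06 over all miRNAs. An F test over the 5 groups also called 0 of 9, where 0.855% of all miRNAs passed. Over the 7 comparisons of group pairs, 1 of the 63 differences had an unadjusted p under 0.05 in edgeR. Of all 351 miRNAs, between 4 and 31 had such a p in a single comparison. All 63 differences of the guides were smaller than 0.5 on the log2 scale. Of their 63 intervals, 62 lay within a 2-fold change in either direction. The exception was let-7d between the TLC-S doses, at 0.43 with a 95% interval from -0.14 to 1.01. Sizes and intervals were not counted in this way over all miRNAs, so these counts do not set the guides apart. A missed threshold does not show that a level was the same; the intervals give the sizes that these libraries allow.

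The member with that p was let-7f. Its level in control replicates 1, 2 and 3 was 32664, 24104 and 35939 CPM. At caerulein 100 pM it was 39731, 45061 and 41934 CPM. The treated libraries all lay above the control libraries, as did 5.41% of all miRNAs in that comparison. The difference was 0.45 on the log2 scale (SE 0.22, 95% interval 0.001 to 0.90, unadjusted p = 0.0494, adjusted p = 0.722 in edgeR), and 6.84% of all miRNAs had an unadjusted p under 0.05 there. As a share of all counts, which does not use TMM, let-7f was 3.65%, 2.86% and 2.64% in control and 3.97%, 3.46% and 3.33% at caerulein 100 pM, so that the groups overlapped. The difference was 0.23 with library totals in place of TMM, a scaling that also shifted the median of all miRNAs by -0.24 in this comparison.

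The spread of let-7f differed between the other groups. At caerulein 100 nM it was 33702, 48080 and 30875 CPM, with replicate 2, the shallowest library of all, the highest. TLC-S 250 uM gave 32959, 29969 and 28945 CPM, and TLC-S 62.5 uM gave 25494, 23933 and 28647 CPM. All libraries of the higher TLC-S dose thus lay above those of the lower dose, as did 5.98% of all miRNAs, with a log2 difference of 0.23 (SE 0.22, adjusted p = 0.906 in edgeR). Over the 5 groups, the F test gave let-7f an unadjusted p of 0.0309 (adjusted p = 0.548), and 7.41% of all miRNAs had an unadjusted p under 0.05 in it.

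The guide let-7g, whose hairpin lies in Wdr82, had the largest negative difference. In control it was 35442, 23049 and 33212 CPM, and at TLC-S 62.5 uM 25943, 24799 and 17159 CPM. The groups overlapped, since control replicate 2 was below 2 of the treated libraries. The log2 difference was -0.43 (SE 0.23, adjusted p = 0.711 in edgeR), and -0.32 without TLC-S 62.5 uM replicate 3. The other treatments gave 31185, 37131 and 25666 CPM at caerulein 100 nM, 36727, 26037 and 31622 CPM at caerulein 100 pM and 30499, 24947 and 26101 CPM at TLC-S 250 uM.

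The leading guide let-7i had control levels of 38107, 31169 and 29748 CPM. It was 36846, 38034 and 33688 CPM at caerulein 100 nM and 37650, 45847 and 34108 CPM at caerulein 100 pM. The TLC-S libraries gave 31903, 38878 and 34806 CPM at 250 uM and 29440, 35018 and 46823 CPM at 62.5 uM. Its groups overlapped in every comparison, and its differences from control ran from 0.09 at TLC-S 250 uM to 0.25 at caerulein 100 pM (SE 0.22 for each, log2 scale).

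Among the less abundant guides, let-7b varied least. Its control levels were 5446, 4499 and 5059 CPM, and those at TLC-S 62.5 uM were 5862, 6358 and 5907 CPM. The treated libraries were all higher, as in 6.27% of all miRNAs, but the log2 difference of 0.27 (SE 0.21) had an adjusted p of 0.880 in edgeR. At TLC-S 250 uM let-7b was 7108, 4969 and 5951 CPM, which overlapped with control, and the 6 caerulein libraries lay between 4716 and 5773 CPM. Its partner on chromosome 15, let-7c, which is made from Mirlet7c-2 and Mirlet7c-1, had a similar difference at TLC-S 62.5 uM (0.30, SE 0.24, adjusted p = 0.880), with levels of 8730, 7405 and 5084 CPM against 6527, 4259 and 6414 CPM in control.

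For miR-98, which shares an intron of Huwe1 with the Mirlet7f-2 hairpin, the lowest level was 2540 CPM at caerulein 100 pM replicate 3, the median 3260 and the highest 4319 CPM in control replicate 1. The range of let-7a was 1638 to 3763 CPM with both ends at TLC-S 62.5 uM, that of let-7d 629 to 1595 CPM and that of let-7e 173 to 416 CPM. For each of these 4 guides the groups overlapped in every comparison, and the smallest of their adjusted p-values was 0.881 in edgeR.

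How far replicates scattered differed between members. The SD of log2 CPM within groups was 0.154 for let-7b, the second smallest of all 351 miRNAs, 0.213 for let-7i and 0.219 for let-7f. It was 0.274 for let-7g, 0.277 for miR-98, 0.289 for let-7c, 0.373 for let-7d, 0.388 for let-7e and 0.448 for let-7a. The median was 0.277 for the 9 guides, 0.438 for all miRNAs tested and 0.279 for the 55 miRNAs with a mean of at least 1000 CPM. For let-7a, with a mean of 2731 CPM, the spread was above that last value, although counting error was small at its depth.

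The scatter was shared by some members. The ratio of 2 guides within a library does not depend on scaling, and its SD over the 15 libraries, in log2, ran from 0.184 for let-7a and let-7e to 0.527 for let-7a and let-7i, with a median of 0.339 over the 36 pairs. Among let-7a, let-7d and let-7e the SD was at most 0.265, while the ratios of these 3 guides to let-7i had SDs from 0.487 to 0.527. The pair let-7b and let-7c, neighbours on chromosome 15 that differ at 1 base (G17A from let-7b to let-7c), had 0.192. Guides 1 base apart were not always close: let-7a and let-7f, which also share the transcript on chromosome 13, had an SD of 0.430. How far reads shared between near-identical guides enter these ratios was not tested.

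**Figure D3:**
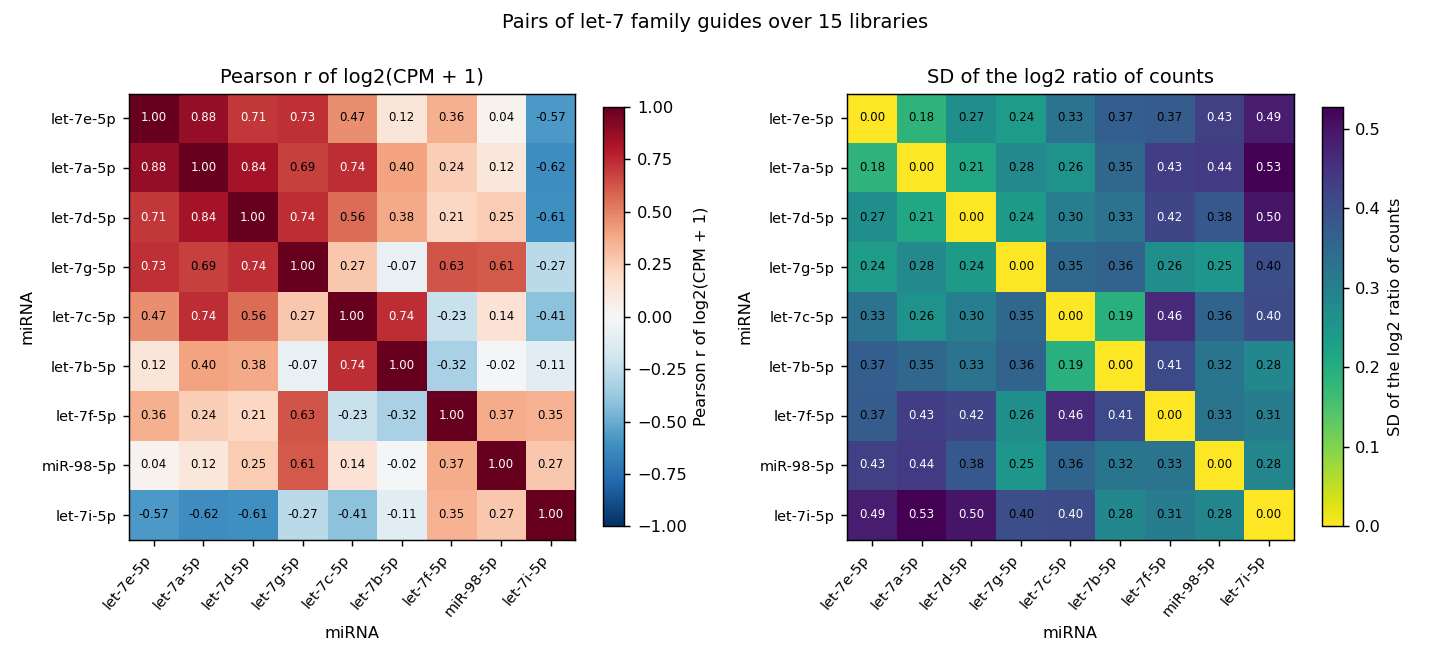
Pearson r of log2(CPM + 1) (left) and SD of the log2 ratio of counts (right) for each pair of let-7 family guides over 15 libraries. The guides let-7e, let-7a, let-7d and let-7g form the block with r from 0.69 to 0.88, and let-7i had r from -0.62 to -0.57 with let-7a, let-7d and let-7e.

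Those negative values for let-7i depended on the scale. With shares of all counts in place of TMM-scaled CPM, r of let-7i with let-7a, let-7d and let-7e ranged from -0.29 to 0.02, while r among let-7a, let-7d and let-7e stayed between 0.74 and 0.87. The library TLC-S 62.5 uM replicate 3 stood apart in the same way. In it let-7i made up 43.1% of the family, against 25.0% to 35.3% in the other 14 libraries, and let-7g made up 15.8%, against 19.5% to 28.0%. Its levels of let-7a and let-7d, at 1638 and 629 CPM, and of let-7e, at 173 CPM, were the lowest of all 15 libraries. Without that library, r of let-7i with the 3 guides ranged from -0.48 to -0.38. Among let-7a, let-7d, let-7e and let-7g, r was then 0.55 to 0.83, against 0.69 to 0.88 with it. These correlations are descriptions over 15 libraries, with no test.

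**Figure D4:**
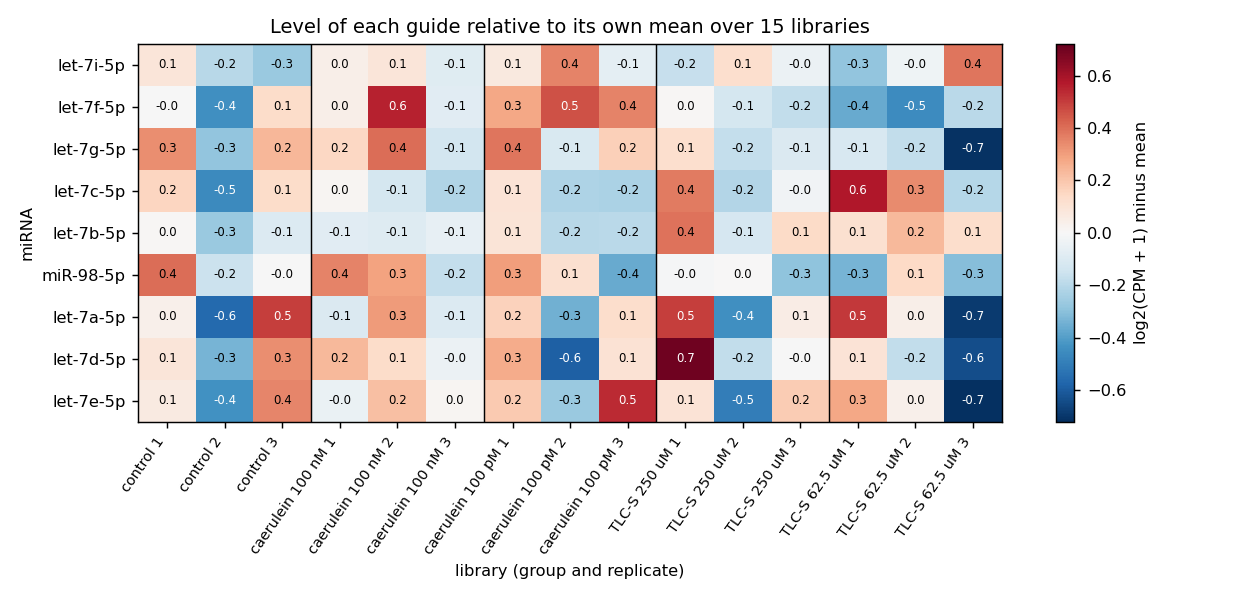
Log2(CPM + 1) of each let-7 family guide minus its own mean over the 15 libraries, with groups separated by lines. In TLC-S 62.5 uM replicate 3, let-7a, let-7d, let-7e and let-7g were low and let-7i was high, and the other libraries of its group did not share this.

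The tested miRNAs whose levels followed each guide most closely were named by the highest r of log2(CPM + 1) among 350 others over the 15 libraries. For let-7a and let-7e this was each other (r = 0.88), for let-7d it was let-7a (0.84), and for let-7b it was let-7c (0.74). The nearest to let-7c was miR-125a-5p (0.91), to let-7f miR-183-5p (0.84), to let-7g miR-7a-1-3p (0.78), to let-7i miR-378d (0.82) and to miR-98 miR-582-5p (0.92). By rank (Spearman) the correlation was weaker for let-7g with miR-7a-1-3p, at 0.53, and from 0.74 to 0.91 for the other guides with their nearest. The sum of the 9 guides was followed most closely by miR-183-5p (0.77), miR-1843a-5p (0.76) and miR-148a-5p (0.72). Choosing the highest of so many values favours high ones, and no test was made.

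Where a guide has several hairpins, the deposited precursor table divides its counts between them. The first hairpin received 50.3% ± 0.134 of let-7a (let-7a-1 against let-7a-2), 49.0% ± 0.249 of let-7c (let-7c-1 against let-7c-2) and 47.0% ± 0.537 of let-7f (let-7f-1 against let-7f-2; SD, n = 15 each). For let-7f the range over libraries was 46.2% to 47.9%. Of the 180 precursor values of the 9 guides, 170 were not whole numbers within 1e-06, against 26.0% of all 8725 precursor values above 0. The larger set includes these 180 values and was not matched to them in level. Guides with 1 hairpin had such values too, from 10 of 15 for let-7i to 15 of 15 for let-7e and let-7g. Whether reads were divided between different guides, and how far this enters their levels, was not tested. A mature guide that is identical in 2 hairpins does not show which one made it, so these shares are not a measure of the output of each hairpin.

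The passenger arms do differ between most hairpins. As a share of both arms of its hairpin, the 3p arm was 34.4% ± 7.67 for let-7d (SD, n = 15). It was 4.27% ± 0.999 for let-7a-1, 2.48% ± 1.19 for let-7e, 2.13% ± 0.767 for miR-98 and 1.93% ± 0.321 for let-7c-2. Shares below 1% were seen for let-7b (0.474% ± 0.124), let-7f-2 (0.239% ± 0.0549), let-7f-1 (0.136% ± 0.0428), let-7i (0.123% ± 0.0250), let-7g (0.0920% ± 0.0394) and let-7c-1 (0.0295% ± 0.0298). The 3p arm of let-7a-2 had 1 count over all libraries. For let-7a, let-7c and let-7f the divided guide counts enter these shares. The 3p sequences that bear on the result, from RefSeq, are printed in lower case.
mmu-let-7d-3p: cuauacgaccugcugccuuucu
mmu-let-7a-1-3p: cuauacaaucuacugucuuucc
mmu-let-7c-2-3p: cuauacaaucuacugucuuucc
mmu-let-7i-3p: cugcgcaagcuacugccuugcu
The passengers of let-7a-1 and let-7c-2 are identical in sequence and held identical values, so their reads cannot be told apart. The passenger of let-7d averaged 514 ± 100 CPM (SD, n = 15), above the guide let-7e.

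**Figure D5:**
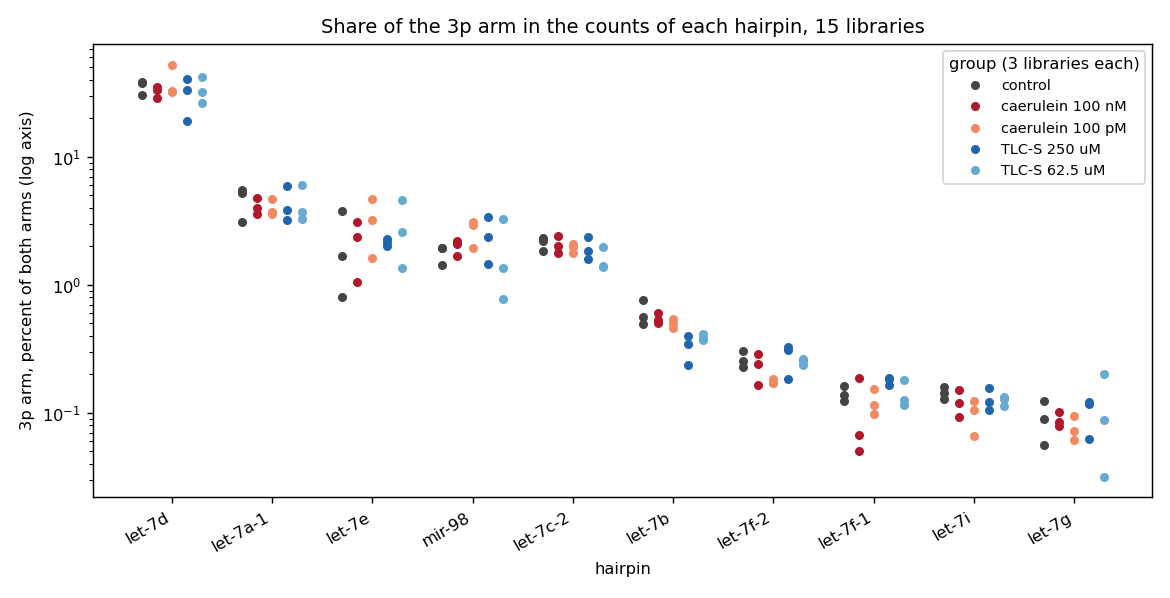
Share of the 3p arm in the counts of both arms of each let-7 family hairpin, in percent on a log axis, with 1 point per library coloured by group. The hairpin let-7d lies between 19.2% and 52.6%, every other one shown lies below 10%, and let-7a-2 and let-7c-1 are left out because they were at 0 in some libraries.

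For let-7d the share of the passenger arm varied between libraries far beyond the counting error. It was 37.8%, 38.7% and 30.4% in control, 35.1%, 29.0% and 33.2% at caerulein 100 nM and 32.6%, 52.6% and 32.1% at caerulein 100 pM. The TLC-S libraries had 19.2%, 40.8% and 33.6% at 250 uM and 26.2%, 32.2% and 42.3% at 62.5 uM. The groups overlapped. The highest value, in caerulein 100 pM replicate 2, had a 95% Wilson interval of 50.5% to 54.7%, and the lowest, in TLC-S 250 uM replicate 1, one of 17.7% to 20.7%. In the former library the guide let-7d-5p was low at 653 CPM, and in the latter it was the highest of all at 1595 CPM. In the former the 3p arm also held more counts than the 5p arm, 1178 against 1061. For this hairpin the words guide and passenger are thus names for the arms and not a result.

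The passenger share of let-7b is given as a hairpin singled out after its values were seen. It was 0.759%, 0.562% and 0.498% in control, 0.544% ± 0.0518 at caerulein 100 nM and 0.501% ± 0.0422 at caerulein 100 pM (SD, n = 3), 0.238%, 0.344% and 0.400% at TLC-S 250 uM and 0.369%, 0.416% and 0.384% at TLC-S 62.5 uM. Every library of each TLC-S dose was below every control library. The same held for 5.62% of 89 hairpins with both arms tested, at each dose, and nothing is read from it. The 3p counts behind these shares were between 21.5 and 86 in the control and TLC-S libraries, and between 15.5 and 138 in the caerulein libraries. The intervals of single libraries overlapped between the groups in part: the lowest control library had a 95% Wilson interval of 0.381% to 0.651%, and the highest treated one 0.327% to 0.528%. The log2 difference of let-7b-3p itself was -0.64 at TLC-S 250 uM (SE 0.34, adjusted p = 0.999) and -0.37 at 62.5 uM (SE 0.33, adjusted p = 0.880) in edgeR.

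Of the 12 passenger arms with a count, 10 were tested and 0 were called in any of the 7 comparisons or in the F test. Their median log2 difference from control was -0.11 at caerulein 100 nM, -0.13 at caerulein 100 pM, -0.02 at TLC-S 250 uM and -0.27 at TLC-S 62.5 uM, beside 0.03, 0.01, -0.03 and -0.01 over all 351 miRNAs. These 10 arms count the identical values of let-7a-1-3p and let-7c-2-3p as 2. Other miRNAs are cut from the same transcripts or clusters as let-7 guides: miR-99a-5p with let-7c, miR-99b-5p and miR-125a-5p with let-7e, miR-100-5p with let-7a, and miR-125b-5p with let-7a and let-7c. All 5 were tested, and 0 were called in any comparison. They averaged 12205 ± 3502 CPM for miR-99a-5p, 941 ± 135 for miR-99b-5p, 467 ± 186 for miR-125a-5p, 412 ± 217 for miR-125b-5p and 242 ± 48.0 for miR-100-5p (SD, n = 15). The level of miR-99a-5p was thus above that of let-7c, and those of the pair miR-99b-5p and miR-125a-5p were above that of let-7e. The largest difference from control in this list was that of miR-125b-5p at TLC-S 62.5 uM, 0.61 (SE 0.40, adjusted p = 0.821 in edgeR).

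The table holds further names close to the family. The seed GAGGUAG is also that of mmu-let-7k and mmu-miR-1961, which had 105 and 14 counts over all libraries and were not tested. The entry mmu-let-7j is named as a let-7 but its seed differs at the last base, G8U from let-7i over their first 22 bases. It is shown in full, with bases 2 to 8 in capitals.
mmu-let-7j: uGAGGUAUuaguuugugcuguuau
Its level was 1440 ± 269 CPM (SD, n = 15), or 4.05% ± 0.890 of the let-7i level, with a range over libraries of 2.31% to 5.66%. It was not called in any comparison. Whether its reads are let-7i reads with 1 error was not tested.

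The stretch between the arms of the hairpins was searched for 1 motif. Lin28 proteins are known to bind a GGAG in the stretch between the arms of let-7 hairpins. The letters GGAG, searched on the RNA strand between the annotated arms, were found in 8 of 11 let-7 and miR-98 hairpins, or 72.7%. In all 644 mouse hairpins of RefSeq with both arms annotated the share was 8.07%, and in the 61 with a stretch of the same length range, 23 to 36 bases, it was 24.6%. By these definitions both sets include the let-7 hairpins. The motif was already known from let-7 hairpins, so the contrast is not a test. The stretches of an abundant guide with the motif (capitals) and of one without it are shown.
Mirlet7i: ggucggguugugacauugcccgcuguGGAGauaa
Mirlet7b: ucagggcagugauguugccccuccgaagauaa
The motif was not found in Mirlet7b, Mirlet7c-2 and Mir98, and Mirlet7a-2 was not assessed because RefSeq lists 1 arm of it. A match is only a description of the sequence.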

How the data were processed

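Small RNA libraries of 15 samples were analysed from deposited tables. The submitters' processing notes name cutadapt, Bowtie, GRCm38 and mm10; which tool counted the reads is not given in the sources used here. In the deposited mature miRNA table the values are estimated counts (expected counts) given as whole numbers, each within 0.5 of the sum over its precursors in the deposited table of fractional counts per precursor. The authors' RPM table matched the latter, scaled to the same total, within 0.0313, and served for alternatives only.

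Groups were taken from sample titles. Counts were filtered with filterByExpr (minimum count 10, minimum total 15), scaled by TMM and fitted with glmQLFit and glmQLFTest of edgeR 4.0.16 in R 4.3.3, as 5 group means over all libraries. This left 351 miRNAs with 10 residual degrees of freedom. Benjamini-Hochberg adjustment ran over the 351, with a threshold of 0.05, for 7 group pairs and an F test. The SE of a log2 difference was its absolute value divided by the square root of edgeR's F statistic. The 95% intervals were that SE times a t quantile to either side. The median 95% interval of a miRNA against control reached 0.72 to either side, and the biological coefficient of variation was 0.285. No replicate pair agreed within sampling noise (chi-square over degrees of freedom 54.9 to 1657), and each library was kept as 1 sample. This does not show that they came from separate preparations. Levels, shares and ratios are described without a test.

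The members, lists and comparisons were chosen with earlier results of these data known. Named were the 9 guides, their 3p arms with a count, 5 cluster partners, other miRNAs with the same seed, and the tested miRNAs with the highest r; let-7j and the arm share of let-7b were added after values were seen. Alternatives were scaling by library totals, RLE or upper quartile, TMM without the 3 miRNAs of highest count, a filter at mean CPM 10 or none, DESeq2 1.42.0, limma 3.58.1 on log2(RPM + 1) or log2(RPM + 10), the highest precursor value, a replicate block, the 2 groups alone, and leaving out libraries. Sequences came from RefSeq (GRCm38.p6), in which all 9 guides matched. Figures were drawn with matplotlib 3.10.9 in Python 3.11.15.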

Additional observations from a re-analysis of the deposited data

How the results depend on the processing

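The count of let-7 guides called was 0 of 9 in each of the 7 comparisons and in the F test under every alternative run. Few miRNAs of any kind were called under them. Over the 5 groups, for example, DESeq2 called 7 of 351 and the fit without a low-count filter 10 of 867. A count of 0 of 9 thus does not set the guides apart from other miRNAs. The 63 log2 differences were recomputed under 30 alternatives each. Their sign changed in 247 of 1890 values, spread over 47 of the 63 differences; none of these differences passed the threshold before or after, and the largest of them was 0.28 (let-7f at caerulein 100 nM). Those 47 differences therefore carry no direction. The rest kept their sign under every alternative, but none of them passed the threshold either. The difference of let-7f at caerulein 100 pM kept its sign and ran from 0.21 to 0.59, with a smallest adjusted p of 0.486 in edgeR; the lowest value came without replicate 2 of every group. The family's share of counts moved from 11.7% to 16.3% when miR-148a-3p was left out of the total, because the total is then smaller. Scaling by library totals shifted the median of all miRNAs by -0.24 for caerulein 100 pM against control and by 0.29 between the caerulein doses. The sample codes share starts across groups. The deviations of libraries with the same start had a positive r in 24 of 30 pairs (r from -0.13 to 0.40, over 0.1 in 15). Whether the codes mark shared preparations is not stated in the labels, and they were not used as pairs. With the codes as a replicate block, 0 of 9 guides were called in each comparison. Over all miRNAs, the block called 5 of 351 for TLC-S 62.5 uM against control, where the main fit called 2. Depth limits let-7e most, at 190 counts in its poorest library.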
